A study of Homo sapiens with 5 samples.

Results

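ATF4 and 9 genes of the amino acid response were described in nascent RNA of HEK293T cells. The genes were taken by their Ensembl identifiers, as a list drawn up with earlier results of these data known: ATF4, DDIT3, TRIB3, CHAC1, DDIT4, ASNS, PHGDH, PSAT1, SHMT2 and MTHFD2, 10 of 20001 genes in the deposited table. HEK293T is an established line derived from human embryonic kidney and expresses SV40 large T antigen. All libraries came from monoclonal HEK293T lines carrying a landing pad, an engineered locus into which DNA can be inserted, and the cells were grown in DMEM with 10% FBS and 1% penicillin-streptomycin. The pad held the CAG promoter, a strong synthetic promoter, in 3 libraries, or the promoter of the glycolytic gene PGK1, named PGK in the labels, in 2 libraries. Each promoter's cells are called a line here. The labels do not give the number of clones behind a promoter, so promoter and clone cannot be told apart, and no group was starved of amino acids or given a stress agent according to the labels. PRO-seq was used, a run-on assay in which engaged polymerases add biotin-labelled nucleotides, so the counts report transcription in progress.

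The amino acid response is a branch of the integrated stress response. When amino acids run short, the kinase GCN2 phosphorylates the translation factor eIF2, general translation slows, and ATF4 messenger RNA is translated more. ATF4, a bZIP transcription factor, then binds composite C/EBP-ATF response elements and activates genes for amino acid synthesis, uptake and redox balance. Because the main control of ATF4 is translational, its own transcription and its activity can part, and PRO-seq measures only the transcription.

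Sequences are shown for the 2 genes whose promoter window held the core of that response element. RefSeq's table (GRCh38.p14) held a window of 300 bases, 250 before to 50 after an annotated start, for 9 of the 10 genes. SHMT2 had no window. There were 14 windows in all, since a gene can have several starts. The core TGATGNAA was searched on both strands and was found in 2.69% of the 22199 windows of protein-coding genes in the table (3.62% of all 35116 windows). It was present in 1 of the 2 windows of ASNS, 68 bases before that window's start on the gene's strand. At CHAC1, which had 1 window, it lay on the opposite strand, with its farthest base 209 bases before the start. The ASNS site lies in chr7:97872458-97872487 and the CHAC1 site in chr15:40953251-40953280, each printed on the minus strand with the core in capitals.
ASNS: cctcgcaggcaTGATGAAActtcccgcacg
CHAC1: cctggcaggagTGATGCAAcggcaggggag
The windows of ATF4, DDIT3, TRIB3, DDIT4, PHGDH, PSAT1 and MTHFD2 did not hold these letters. The endoplasmic reticulum stress element ERSE (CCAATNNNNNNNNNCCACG), searched as well, was found in 0 of the 14 windows and in 0.104% of the windows of protein-coding genes. A match is a description of letters and does not show a bound factor.

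The libraries held 4873883 to 5864157 counts in the CAG line and 3712105 to 5582070 counts in the PGK line. The 10 genes together took 0.0732%, 0.0786% and 0.0752% of the counts in CAG replicates 1, 2 and 3, against 0.0714% and 0.0612% in PGK replicates 1 and 2. All 10 passed the filter on low counts, as did 13400 genes in all. Levels are given as CPM, counts scaled to the TMM-adjusted library size. They are compared between libraries of a gene and not between genes, since the sources used here do not give the counted length of a gene. Whether replicates came from separate cultures is not labelled, so each p-value reflects library-to-library spread that may be technical. The PGK replicates differed from each other more than the CAG replicates did: the chi-square divided by its degrees of freedom was 1.64 to 1.84 for CAG pairs and 4.54 for the PGK pair.

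A minority of the genes rose modestly in the CAG line and the other members were not called. ASNS, DDIT4, PSAT1 and PHGDH rose between 1.14-fold and 1.31-fold (called, here and below, means an adjusted p under 0.05 in edgeR's quasi-likelihood test). No member was called lower: at an unadjusted p under 0.05 edgeR gave 5 higher and 0 lower, and DESeq2 gave 3 higher and 0 lower. The share of all tested genes under that unadjusted threshold is not given here, so these counts stand without a background. After adjustment DESeq2 called 0 of the 10 genes, beside 3943 of the 17286 genes it tested, so each of the 4 calls was lost with that tool. The share called, 4 of 10 (40%), stands beside 43.4% of all tested genes called in either direction, and 4 of 10 called higher beside 22.7%, and 0 of 10 called lower beside 20.7%. The share called is thus near that of all genes. The CAG libraries lay wholly above the PGK libraries for 4 of 10 members, beside 30.9% of all tested genes, and wholly below for 0 of 10, beside 30.4%, so that 4 of 10 did not overlap, beside 61.2%. In bulk libraries, fewer cells transcribing a gene and less transcription per cell cannot be told apart. The members' median log2 fold change was 0.19, against 0.00 for all tested genes (-0.00464 unrounded), and the median size was 0.21 for the members and 0.25 for all tested genes. No member changed 2-fold.

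**Figure D1:**
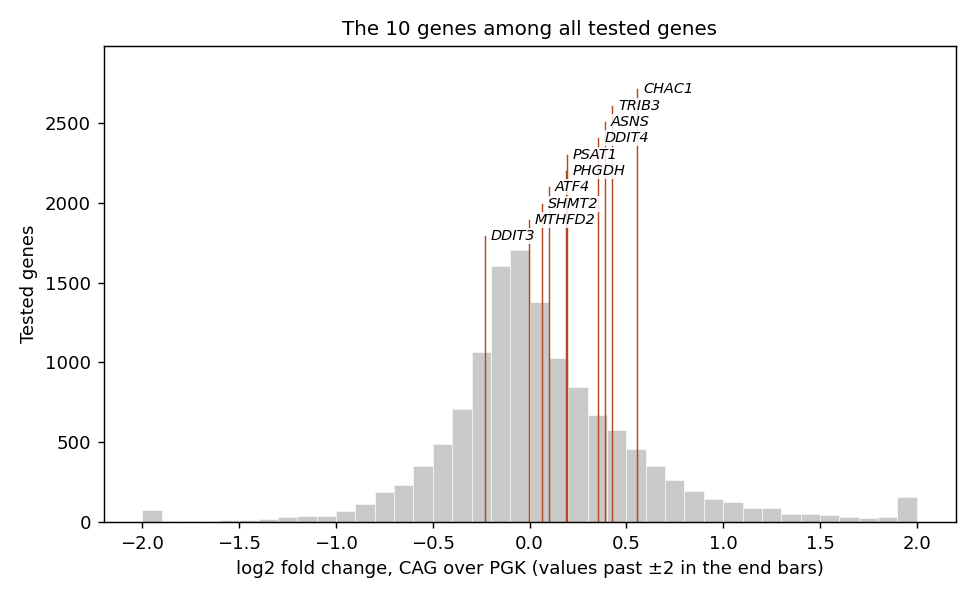
Histogram of the log2 fold change (CAG over PGK, x axis) of all 13400 tested genes (y axis, number of genes; values past the ends are in the end bars), with a line at the value of each of the 10 genes. The genes lie between -0.23 for DDIT3 and 0.56 for CHAC1, inside the bulk of all genes.

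ATF4 (ENSG00000128272), the transcription factor itself, was not called different between the lines. It had 158, 165 and 159 CPM in CAG replicates 1, 2 and 3, against 163 and 135 CPM in PGK replicates 1 and 2. PGK replicate 2 was the low library and PGK replicate 1 lay within the range of the CAG libraries, so the lines overlapped. The means were 161 ± 3.83 CPM in the CAG line (SD, n = 3) and 149 ± 20.3 CPM in the PGK line (SD, n = 2). The log2 fold change was 0.10 ± 0.08 (SE), with a 95% interval of 0.959-fold to 1.20-fold and an edgeR adjusted p of 0.315. A 1.5-fold difference in either direction thus lay outside the interval. Without PGK replicate 1 the value was 0.25, and without PGK replicate 2 it was -0.02. RefSeq lists 4 ATF4 pseudogenes, and whether reads of such copies were kept apart is not known.

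**Figure D2:**
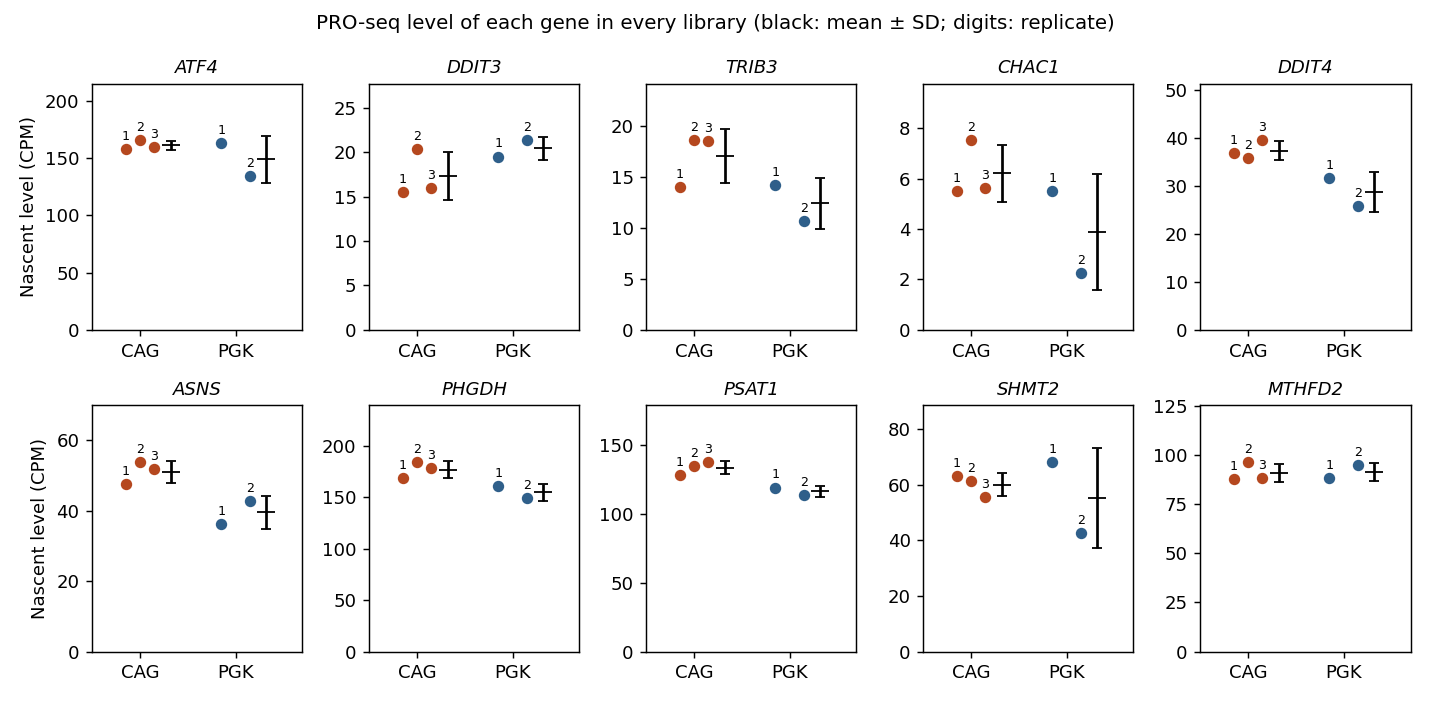
Level in CPM (y axis, from 0) of each gene in every library, with the CAG line (3 libraries) left of the PGK line (2 libraries). Digits give the replicate, and black marks give the mean ± SD of a line. ASNS, DDIT4, PHGDH and PSAT1 have all CAG libraries above both PGK libraries, and the other 6 genes overlap.

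DDIT3 (ENSG00000175197) encodes CHOP, a bZIP factor that acts with ATF4 in prolonged stress and is linked to cell death. It had 15.5, 20.4 and 16.0 CPM in the CAG replicates, against 19.5 and 21.3 CPM in the PGK replicates. CAG replicate 2 reached the PGK level while the other CAG libraries lay under it. The log2 fold change of -0.23 ± 0.16 (SE) was not called (edgeR adjusted p = 0.257), and its interval ran from 0.676-fold to 1.07-fold. DDIT3 rested on 76 to 103 counts in CAG libraries and 76 to 110 in PGK libraries, and its reads may not be separate from those of 3 genes that overlap it in RefSeq: MARS1 on the other strand, LOC128125814 on the same strand and MIR616.

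TRIB3 (ENSG00000101255), a pseudokinase induced by ATF4 and CHOP that acts back on ATF4, had 14.0, 18.6 and 18.5 CPM in the CAG replicates. It had 14.2 and 10.7 CPM in the PGK replicates. CAG replicate 1 and PGK replicate 1 were nearly equal, so the lines overlapped. Its log2 fold change was 0.43 ± 0.19 (SE) with an edgeR adjusted p of 0.0646. Among the alternative settings that kept both PGK libraries, it was called only with no filter and without CAG replicate 1. The edgeR adjusted p was 0.0475 with no filter and 0.0321 without CAG replicate 1.

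CHAC1 (ENSG00000128965), which breaks down glutathione, is a target of ATF4 and has one of the cores printed above in its promoter window. It had 5.49, 7.51 and 5.61 CPM in the CAG replicates, against 5.50 and 2.24 CPM in the PGK replicates. PGK replicate 2 held only 8 counts of this gene and was the low library, and PGK replicate 1, with 31 counts, lay within the CAG range. Its log2 fold change of 0.56 ± 0.31 (SE) was the largest of the 10 and was not called (edgeR adjusted p = 0.152). The interval, 0.947-fold to 2.28-fold, was also the widest. Without PGK replicate 1 the log2 fold change was 1.44, and without PGK replicate 2 it was 0.17, so the size rests on single PGK libraries.

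DDIT4 (ENSG00000168209) encodes REDD1, a stress-induced inhibitor of the growth kinase mTORC1. It had 36.8, 35.8 and 39.5 CPM in the CAG replicates and 31.7 and 25.8 CPM in the PGK replicates. All CAG libraries lay above both PGK libraries. It rose 1.28-fold in the CAG line, a log2 fold change of 0.36 ± 0.12 (SE) with an edgeR adjusted p of 0.0213. The call was lost without CAG replicate 3 (edgeR adjusted p = 0.0809) and in DESeq2 (adjusted p = 0.115). It was also lost with the replicate number as a block (edgeR adjusted p = 0.0735). Without PGK replicate 2 the log2 fold change was 0.24.

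ASNS (ENSG00000070669), asparagine synthetase, makes asparagine from aspartate and glutamine and is a textbook target of ATF4 through an element in its promoter, where the core printed above lies. It had 47.6, 53.8 and 51.7 CPM in the CAG replicates, against 36.2 and 42.9 CPM in the PGK replicates. All CAG libraries lay above both PGK libraries. It rose 1.31-fold in the CAG line, with a log2 fold change of 0.39 ± 0.11 (SE), an interval of 1.12-fold to 1.53-fold and the lowest adjusted p of the 10 genes (edgeR, 0.00452). The call was narrowly lost in DESeq2 (adjusted p = 0.0532), and without PGK replicate 1 the log2 fold change was 0.24. RefSeq lists 5 ASNS pseudogenes and a readthrough transcript with CZ1P, whose reads may not be separate. The pseudogenes SNRPCP9 and RPS3AP29 also overlap ASNS there.

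PHGDH (ENSG00000092621) and PSAT1 (ENSG00000135069) catalyse consecutive steps of serine synthesis from a glycolytic intermediate. PHGDH, the first enzyme, had 168, 184 and 178 CPM in the CAG replicates, against 160 and 149 CPM in the PGK replicates. PSAT1, the aminotransferase of the next step, had 128, 134 and 137 CPM in the CAG replicates, against 119 and 114 CPM in the PGK replicates. In both genes every CAG library lay above both PGK libraries, by a narrow margin. PHGDH rose 1.14-fold (log2 0.19 ± 0.07 SE, edgeR adjusted p = 0.0406), and PSAT1 also rose 1.14-fold (log2 0.19 ± 0.07 SE, edgeR adjusted p = 0.0281). These calls lay close to the threshold: both were lost in DESeq2 and with the replicate number as a block. Leaving out CAG replicate 2 or CAG replicate 3 also ended both calls. Leaving out CAG replicate 1 ended that of PHGDH (edgeR adjusted p = 0.059). Without PGK replicate 2 the log2 fold change was 0.14 for PHGDH and 0.17 for PSAT1. RefSeq lists 4 PSAT1 pseudogenes.

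SHMT2 (ENSG00000182199) and MTHFD2 (ENSG00000065911) are the mitochondrial enzymes that carry the one-carbon unit of serine onto folate and oxidise it. SHMT2 had 63.3, 61.3 and 55.5 CPM in the CAG replicates, against 68.1 and 42.6 CPM in the PGK replicates. The CAG libraries all lay between the PGK libraries. Its log2 fold change was 0.07 ± 0.12 (SE, edgeR adjusted p = 0.699), but 0.48 without PGK replicate 1 and -0.18 without PGK replicate 2. MTHFD2 had 87.9, 96.3 and 88.5 CPM in the CAG replicates, against 88.3 and 94.8 CPM in the PGK replicates. The libraries of both lines were interleaved, and the log2 fold change was 0.00 (-0.00465 unrounded) ± 0.08 (SE, edgeR adjusted p = 0.969). Its interval ran from 0.892-fold to 1.11-fold, so a difference of more than 1.11-fold upward or 0.892-fold downward lay outside it. RefSeq lists 7 MTHFD2 pseudogenes and places MTHFD2 across SLC4A5, on the other strand. It also places SHMT2 across COXFA4L2, which lies on the minus strand.

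**Figure D3:**
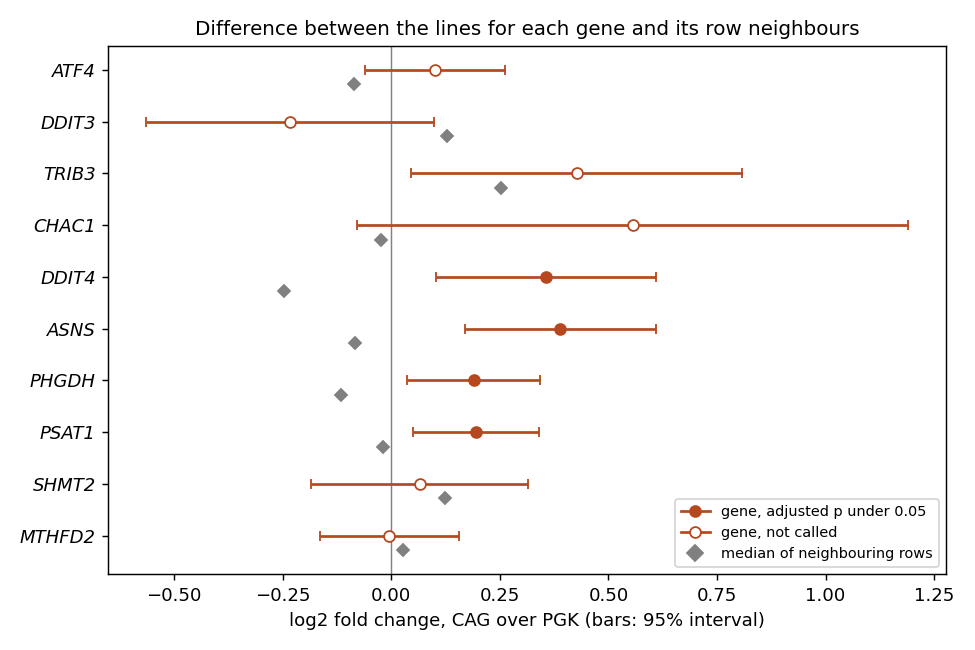
Log2 fold change (CAG over PGK, x axis) of each gene with its 95% interval from edgeR; filled points have an adjusted p under 0.05. Grey diamonds give the median log2 fold change of 20 tested rows on each side in the table. DDIT4 stands farthest above its neighbours, and MTHFD2 and SHMT2 lie close to theirs.

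The 2 PGK replicates differed for several members. PGK replicate 1 was above PGK replicate 2 for 7 of the 10 genes, against 48.4% of all tested genes. The members' median log2 difference, PGK replicate 1 minus replicate 2, was 0.19, against -0.01 for all tested genes, as large as their median log2 fold change between the lines. The ratio of PGK replicate 1 to replicate 2 was 2.45 for CHAC1, 1.60 for SHMT2, 1.33 for TRIB3, 1.23 for DDIT4 and 1.21 for ATF4. ASNS ran the other way, at 0.843. The size of the PGK difference (log2 CPM) of CHAC1 exceeded that of 98.7% of tested genes, and that of SHMT2 exceeded 94.4%. Within the CAG line the members' median log2 range over the 3 libraries was 0.16, against 0.17 for all tested genes.

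With 1 CAG library left out, between 1 and 4 of the 10 genes were called, all of them higher in the CAG line. Without CAG replicate 1 the 4 were ASNS, DDIT4, PSAT1 and TRIB3, beside 4754 of 13306 tested genes (2600 higher). Without CAG replicate 2, ASNS and DDIT4 were called, beside 4986 of 13293 (2678 higher). ASNS was the only call without CAG replicate 3, beside 4999 of 13259 (2695 higher). With 1 PGK library left out, the PGK line has no spread of its own, so log2 fold changes are given instead. Without PGK replicate 1 they were 0.24 for ASNS, 0.53 for DDIT4, 0.22 for PSAT1 and 0.24 for PHGDH. Without PGK replicate 2 they were 0.50, 0.24, 0.17 and 0.14 in the same order. Calls in the fits with 1 PGK library are not counted, so no call could be checked against the loss of a PGK library.

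**Figure D4:**
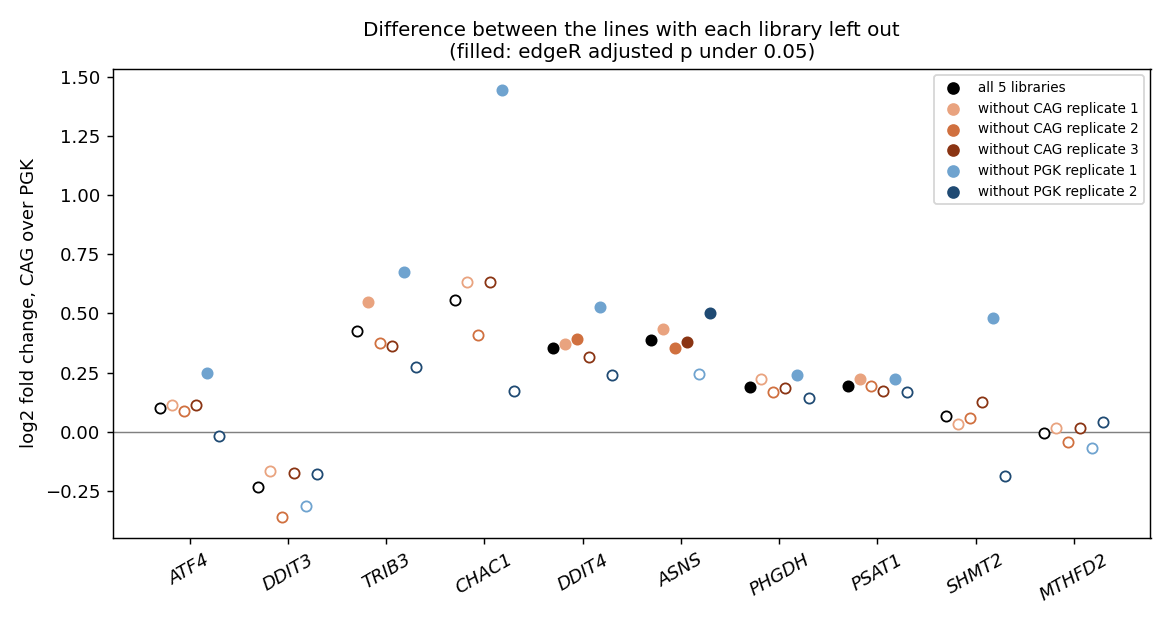
Log2 fold change (CAG over PGK, y axis) of each gene with all 5 libraries and with each library left out in turn; filled points have an edgeR adjusted p under 0.05. The values without PGK replicate 1 are the highest for 7 of the genes, up to 1.44 for CHAC1. SHMT2, ATF4 and MTHFD2 change sign without PGK replicate 2, and MTHFD2, near 0, also without CAG replicate 1 or 3. Where 1 PGK library is left, the spread comes from the CAG libraries alone, and filled points there are not counted as calls in the text.

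Each gene was also set beside the 20 tested rows on each side of it in the table, members left out. DDIT4 rose among neighbours whose median was -0.25, with 19 of 40 called lower and 3 higher. It was 1.52-fold above that median, and above its neighbours in 6 of 6 pairs of a CAG and a PGK library, by 0.38 to 0.88 on the log2 scale. ASNS stood 1.39-fold above neighbours with a median of -0.08, and PHGDH 1.24-fold above neighbours with a median of -0.12, each above in 6 of 6 pairs. PSAT1 stood 1.16-fold above its neighbours, also in 6 of 6 pairs. TRIB3 lay in rows that were higher in the CAG line, with a neighbour median of 0.25 and 16 of 40 called higher, and its own change was 1.13-fold that median but below its neighbours in 2 of 6 pairs. CHAC1 stood 1.49-fold above its neighbours and ATF4 1.14-fold, each above in 6 of 6 pairs. For CHAC1 the log2 margins were 0.07 to 0.50 against PGK replicate 1 and 1.21 to 1.58 against PGK replicate 2. For ATF4 they ran from 0.03 to 0.34.

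DDIT3 and SHMT2 lie 9 rows apart in the table and share most of those neighbours, whose median was 0.13 for DDIT3 and 0.12 for SHMT2. DDIT3 was below its neighbours in 6 of 6 pairs of libraries, by 0.07 to 0.60 on the log2 scale, and SHMT2 in 3 of 6. MTHFD2 was 0.979-fold its neighbours and below them in 4 of 6 pairs. Pairs share libraries and are not independent, so these counts are given without a test. How many of all tested genes lie on 1 side of their neighbours in 6 of 6 pairs was not counted.

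Across the 5 libraries, the members at the smallest distance from ATF4 were PHGDH and PSAT1. The root mean square distance between log2 CPM values, each gene centred on its mean, was 0.07 for PHGDH, 0.08 for PSAT1, 0.25 for DDIT3 and 0.43 for CHAC1. Among all other tested genes the nearest were ENSG00000179918 at 0.016 and ENSG00000139631 at 0.0216, neither called by edgeR (adjusted p = 0.605 and 0.607). In all, 995 tested genes lay within 0.1 of ATF4, so closeness over these 5 libraries was common. The distance is also small between genes that vary little, so it does not rank how alike patterns are in shape. PGK replicate 1 lay within the CAG range for ATF4 and CHAC1, while PHGDH and PSAT1 had both PGK libraries below every CAG library.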

How the data were processed

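PRO-seq was deposited for 5 HEK293T libraries. The authors deposited raw read counts by Ensembl identifier, 1 column per library, each matched to a sample by its description. The submitters' processing notes name featureCounts 2.0.3, UMI-tools, HISAT2 2.2.1, Bowtie2 2.5.1, cutadapt and fastp 0.23.2, and the hg19 build, without roles. The annotation, the strandedness and which part of a gene was counted: not given in the sources used here. The 18 of 20019 rows without identifier (at most 0.000448% of a library) were left out. Genes were kept by filterByExpr (minimum count 10, minimum total 15), scaled by TMM and tested with edgeR 4.0.16 (R 4.3.3) with no covariate, with Benjamini-Hochberg adjustment over all 13400 genes. SE was taken as |log2 fold change| divided by √F. Log2 CPM used a prior count of 2.

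Members were named by the rule that chose them. The members and gene lists were chosen with earlier results of these data known. Besides the 10 members, the rule for named genes took those nearest to ATF4, of which 2 are printed by identifier. RefSeq's table held 0 Ensembl identifiers, so 7 lists of 97 related genes (eIF2 kinases, bZIP partners, one-carbon enzymes, transporters, tRNA synthetases, other ATF4 targets, mTORC1 control) and 10 cell type markers were not analysed here. The ERSE search was added later. Alternatives were other scaling, filters, DESeq2 1.42.0, limma-trend (limma 3.58.1), the replicate block, other row windows and leaving out each library.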

Additional observations from a re-analysis of the deposited data

Results flagged for a closer look

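In the 18 rows that carry no identifier, 95 counts were found in the 5 libraries together. They lie in data the comparisons did not use, at most 0.000448% of a library, and with no name they could not be assigned to any of the 10 genes.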

How the results depend on the processing

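The count of called members, 4, depended on the setting, while the count over all genes, 5818, stayed within 1.5 times in all 12 alternatives (3943 in DESeq2 to 6024 with no filter). It was 4 with DESeq2 size factors, beside 5816 of 13400 tested genes, and with upper-quartile factors, beside 5694 of 13400. It was also 4 with at least 1 CPM in every library (5524 of 13123) and limma-trend (5833 of 13400). With no filter it was 5, beside 6024 of 17286 tested genes. DESeq2 called 0 members, beside 3943 of the 17286 genes it tested, with 3 members at an unadjusted p under 0.05. The replicate block called 1 member, ASNS, beside 4667 of all 13400 tested genes. Libraries with the same number deviated from their line means with correlations of 0.04 and -0.07. The deviations of the 2 PGK libraries mirror each other and CAG replicate 3 has no partner, so these values cannot tell whether replicates were paired. With 1 CAG library left out it was 1 to 4. Where 1 PGK library was left, its spread was taken from the CAG libraries, so calls of members in those fits are not counted here. Members at least 1.5-fold from their neighbours numbered 1 in the main setting, 2 with 10 rows on each side, 1 with 50 and 0 to 2 with 1 library left out. The share of all tested genes that far from their neighbours was not computed, so these numbers stand without a background. With 1 library left out, log2 fold changes lay between -0.0191 and 0.249 for ATF4, between -0.185 and 0.480 for SHMT2 and between -0.0703 and 0.0427 for MTHFD2, with the negative values of ATF4 and SHMT2 without PGK replicate 2. MTHFD2, near 0, turned positive with upper-quartile factors (0.0196), at least 1 CPM (0.000579), the replicate block (0.00768) and without CAG replicates 1 (0.0176) and 3 (0.0163) and PGK replicate 2 (0.0427). The other 7 genes kept their direction in all 12. The cause was not tested. The standard error was larger for the genes with few counts (log2 0.31 for CHAC1, 0.19 for TRIB3 and 0.16 for DDIT3) than for ATF4 (0.08).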
